A study of Mus musculus with 2 samples.

Results

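Rod fate and rod phototransduction were followed through 9 genes: the transcription factors Nrl and Nr2e3, the phototransduction genes Sag, Gnat1, Gngt1, Pde6b and Cngb1, and the disc membrane genes Rom1 and Prph2. Every probe set was taken whose platform annotation gives one of these symbols and no other, which found 11 of 45037 probe sets and 8 of the 9 genes. Nr2e3 matched no such probe set, so Nrl alone stands for the early regulators. The tissue was the retina of a Sox11-/- mouse embryo and the retina of a wild-type littermate, both C57BL/6 and both at embryonic day 18, with 1 array for each genotype. Sox11 encodes a transcription factor of differentiating neurons. Neither the deleted stretch of Sox11 nor any Cre driver is named in the labels. The genes were chosen by their role and by their lower intensities between these same 2 arrays, so every intensity and log2 ratio of a member below is a description of 2 retinas. There was no replicate, no error between animals and no test.

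Rods are the dim-light photoreceptors and the most numerous neurons of the adult mouse retina, and they are born from the embryonic period into the first postnatal days. Otx2 and Crx establish photoreceptor precursors, Nrl commits them to the rod fate, and Nrl together with its target Nr2e3 turns on rod genes and holds back cone genes. Light sets off a cascade through the G protein transducin, whose alpha and gamma subunits in rods are Gnat1 and Gngt1. Transducin releases the phosphodiesterase that contains Pde6b, cyclic GMP falls, the cation channel that contains Cngb1 closes, and the arrestin Sag helps to end the response. Prph2 and Rom1 are related tetraspanins that shape the rim of the outer segment discs, which form after birth.

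The promoters of rod genes carry the sites through which this programme is read, and 4 of them are shown because these genes gave lower intensities on the Sox11-/- array and hold the letters of a site for Crx or Nrl. Each is the 250 bases before a transcription start in RefSeq on GRCm38.p6, written 5′ to 3′ along the gene. The Sag and Gngt1 windows lie inside the spans of their genes, which begin at 87798143 and 3989082. Capitals mark the Crx letters TAATCC, read GGATTA on the other strand, and the Nrl half-site letters TGCTGA, read TCAGCA on the other strand. The Sag promoter is chr1:87803430-87803679 on the plus strand, Gngt1 is chr6:3993758-3994007 on the plus strand, Cngb1 is chr8:95306586-95306835 on the minus strand and Pde6b is chr5:108388123-108388372 on the plus strand.
Sag: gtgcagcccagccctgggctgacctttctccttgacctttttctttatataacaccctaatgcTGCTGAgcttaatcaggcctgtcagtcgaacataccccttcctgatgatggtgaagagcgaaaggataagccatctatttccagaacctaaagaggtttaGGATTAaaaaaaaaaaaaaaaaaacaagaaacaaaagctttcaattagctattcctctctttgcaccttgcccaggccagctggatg
Gngt1: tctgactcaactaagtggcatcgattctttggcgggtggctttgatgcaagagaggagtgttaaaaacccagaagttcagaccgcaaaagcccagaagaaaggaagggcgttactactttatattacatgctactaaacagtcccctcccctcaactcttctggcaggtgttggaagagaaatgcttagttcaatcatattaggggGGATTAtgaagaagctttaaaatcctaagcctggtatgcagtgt
Cngb1: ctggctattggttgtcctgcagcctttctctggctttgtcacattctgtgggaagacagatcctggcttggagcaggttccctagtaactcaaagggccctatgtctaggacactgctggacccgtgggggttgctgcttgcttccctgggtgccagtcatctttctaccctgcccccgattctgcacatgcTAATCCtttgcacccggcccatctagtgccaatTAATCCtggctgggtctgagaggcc
Pde6b: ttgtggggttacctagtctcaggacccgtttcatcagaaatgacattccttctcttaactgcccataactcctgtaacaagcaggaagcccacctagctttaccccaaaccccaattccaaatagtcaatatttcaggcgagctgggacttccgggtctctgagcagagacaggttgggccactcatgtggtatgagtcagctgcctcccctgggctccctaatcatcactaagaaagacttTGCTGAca

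The promoter table held 8 of the 9 genes, all but Gnat1. The Crx letters were present in 3 of the 8 promoters, those of Sag, Gngt1 and Cngb1, against 6.25% of 32851 promoters of the same length. In Cngb1 they occurred at 2 places, whose first bases lie 58 and 25 bases before the start, and in Sag and Gngt1 once each, at 87 and 44 bases. The Nrl half-site letters were present in 2 of 8, those of Sag, at 187 bases, and Pde6b, at 8 bases, against 16.1% of all promoters. Sox proteins recognise ACAAAG, read CTTTGT on the other strand, which was found in 2 of 8, those of Cngb1 and Prph2, against 16.5%. The palindromic E-box letters CANNTG, the core read by proneural factors, were in 6 of 8 against 66.2%. No Crx and Nrl letters overlapped each other. The windows of Nrl, Nr2e3 and Rom1 held neither the Crx, Nrl nor Sox letters. The Nrl window, chr14:55524253-55524502 on the minus strand, lies inside the span of its gene, which reaches 55524981. The stretch before that end of the Nrl gene was not searched. A match of 6 letters is a description of the sequence and does not show a bound site.

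Both arrays had been scaled alike by the authors, with a mean of 100 after leaving out 2% of the probe sets at each end, and their median intensities were 19.7 in Sox11-/- and 17.6 in wild-type. A probe set was counted as measured when the brighter array reached 18.6, the median of all values pooled, and 23581 did. Log2 ratios are Sox11-/- minus wild-type of the intensity plus 5, which shrinks the differences of dim probe sets. Of the 6 Sox11 probe sets, 5 were lower in Sox11-/-, and the 6 log2 ratios ran from -3.64 to 1.08. The sex-linked transcripts also differed: Xist read 922.7 in Sox11-/- and 12.3 in wild-type, and the Y-linked Eif2s3y read 4.7 in Sox11-/- and 214.0 in wild-type, so genotype and embryo sex cannot be told apart. Markers of the labelled tissue were present on both arrays: the retinal progenitor gene Pax6 read 2085.8 in Sox11-/- and 2160.9 in wild-type, and Hes5, a Notch target of progenitors, read 1904.9 in Sox11-/- and 2263.8 in wild-type.

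Each of the 11 rod probe sets, the 3 below the filter included, read lower in Sox11-/- than in wild-type, as did 44.9% of all probe sets past the filter. Of the 8 genes, 6 passed the filter, and 3 of these, Nrl, Sag and Pde6b, were at least 2-fold lower on the log2 scale used. Among all genes past the filter 0.407% were at least 2-fold lower, and among all such probe sets 0.399%. The members were chosen by lower intensities between these same arrays, so these shares are no test of them. Against the filter value Pde6b was at least 1.96-fold lower, a bound short of 2-fold. Pde6b, Cngb1 and the Gngt1 probe set 1425219_x_at passed only through their wild-type value. Once past the filter, these had to be lower in Sox11-/-. Gnat1 and Prph2 were below the filter on both arrays and are not among the 6. In whole retina, fewer rods and less RNA of these genes in each rod cannot be told apart.

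**Figure D1:**
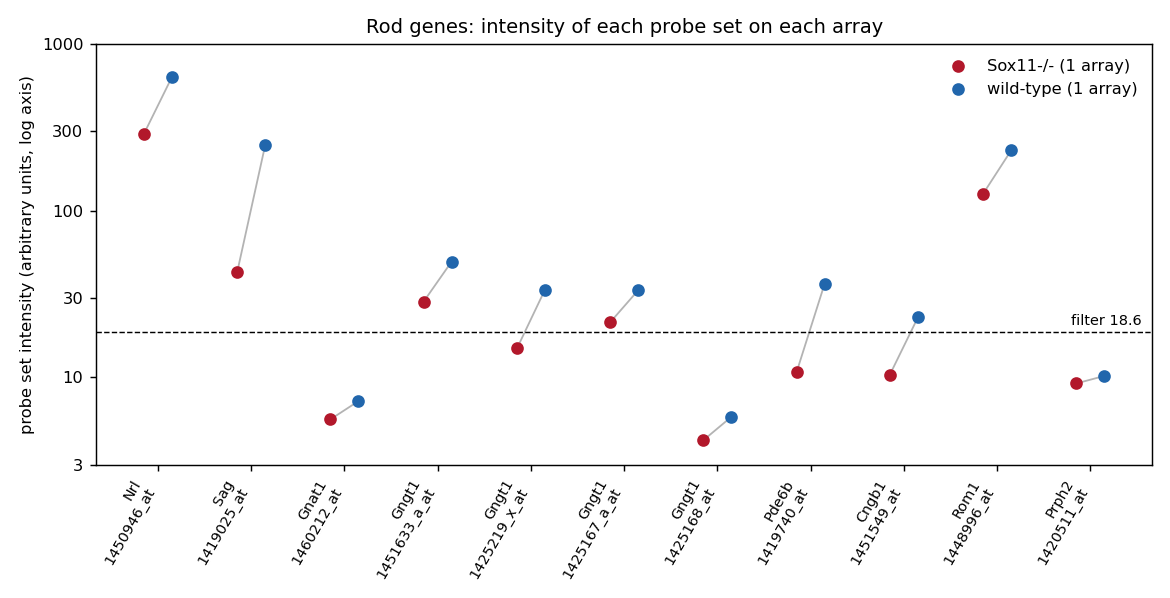
Intensity of each rod gene probe set on a log axis, with Sox11-/- in red to the left of wild-type in blue, 1 array each, and the filter of 18.6 as a dashed line. All 11 red points lie below their blue partner, and Gnat1, Prph2 and 1 of 4 Gngt1 probe sets lie under the filter on both arrays.

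Nrl, the factor that sets rod fate, was measured by 1 probe set, 1450946_at. It read 289.0 in Sox11-/- and 632.8 in wild-type, so the Sox11-/- retina gave 45.7% of the wild-type intensity. The log2 ratio was -1.12, rank 35 from the lowest among 11557 genes past the filter. Nrl lay in the brightest of 4 equal bands of level, where 95% of all probe sets fell between log2 ratios of -0.38 and 0.41. In that band of 5896 probe sets, 5 were at least 2-fold lower in Sox11-/-, which is 0.0848% of it. These 5, singled out after their values were seen, were 4 probe sets of Sox11 itself and the Nrl probe set. The gene lies at chr14:55518978-55524981 on GRCm38.p6.

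Sag, the rod arrestin, which mouse cones also express, had the lowest log2 ratio of the members. Its probe set 1419025_at read 42.8 in Sox11-/- and 246.7 in wild-type, 17.3% of the wild-type intensity or 5.76-fold lower. Both values stood above the filter, and the log2 ratio of -2.40 was rank 6 among genes. In its band of level, where the central 95% ran from -0.44 to 0.57, 8 of 5895 probe sets were at least 2-fold lower, and Sag was the lowest of them. The other 7, also looked up after their values were seen, were those of Tmem18, Nudt21 with 2 probe sets, Cryab, Rgl2, Pdgfra and 1 unnamed probe set. No other gene of the rod pathway list is among the named ones. The unnamed probe set has no single symbol in the annotation, so its gene is not known here.

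Pde6b, the beta subunit of the rod phosphodiesterase, read 10.8 in Sox11-/- and 36.5 in wild-type with the probe set 1419740_at. The Sox11-/- value was below the filter, so the difference is given as at least 1.96-fold lower, beside a log2 ratio of -1.39. Cngb1, the beta subunit of the rod channel, whose locus also makes the glutamic acid-rich GARP proteins, read 10.4 in Sox11-/- and 22.9 in wild-type with 1451549_at. It was at least 1.23-fold lower, with a log2 ratio of -0.86. Both genes sit in the dimmest band, where the central 95% ran from -0.76 to 1.18 and 1.17% of probe sets were at least 2-fold lower. The annotation used here does not say which Cngb1 product the probe set reads.

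Gngt1, the rod transducin gamma subunit, was the only member with several probe sets, and the 3 that passed had log2 ratios of different size. The probe set 1451633_a_at read 28.5 in Sox11-/- and 49.5 in wild-type, a log2 ratio of -0.70. For 1425219_x_at the values were 14.9 in Sox11-/- and 33.5 in wild-type, at least 1.80-fold lower with a log2 ratio of -0.95. The third, 1425167_a_at, read 21.4 in Sox11-/- and 33.3 in wild-type, a log2 ratio of -0.54. The 4th, 1425168_at, read 4.2 in Sox11-/- and 5.8 in wild-type, both below the filter. All were lower in Sox11-/-, and 2 of the 3 log2 ratios that passed, those of 1451633_a_at and 1425167_a_at, lie inside the central 95% of their band. These probe sets target the same gene and are repeat readings of the same RNA, and the a and x in their names mark designs that can match more than 1 transcript. Gnat1, the transducin alpha subunit, read 5.6 in Sox11-/- and 7.2 in wild-type, below the filter on both arrays, so no fold is given.

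Of the disc rim genes, Rom1 was measured clearly and Prph2 was not. Rom1 read 126.5 in Sox11-/- and 230.0 in wild-type with 1448996_at, 55.0% of the wild-type intensity or 1.82-fold lower. Its log2 ratio of -0.84 lay outside the central 95% of its band, -0.44 to 0.57, the band that also holds Sag. Prph2 read 9.2 in Sox11-/- and 10.2 in wild-type, below the filter on both arrays. The pair that together shape the disc rim therefore cannot be compared with each other at this stage.

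**Figure D2:**
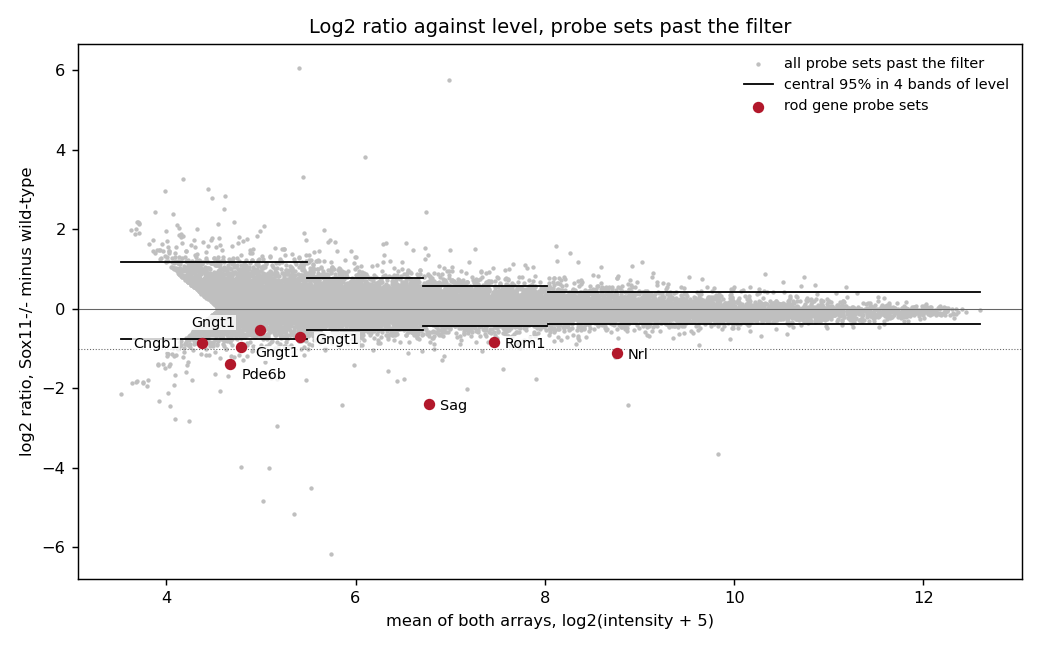
Log2 ratio (Sox11-/- minus wild-type) of every probe set past the filter against its mean level, with the 8 rod gene probe sets past the filter in red and the central 95% of log2 ratios in 4 bands of level as black lines. The dotted line marks 2-fold lower, and Sag, Nrl and Rom1 stand below the black lines where the spread of all probe sets is narrow.

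Set against each other, the early regulator and the late genes overlapped. Nrl had a log2 ratio of -1.12, and the 5 late genes past the filter, Sag, Pde6b, Cngb1, Rom1 and Gngt1, ran from -2.40 to -0.70 with a median of -0.86. The late genes therefore lay on both sides of Nrl, 2 lower and 3 less low. One of the 2 lower, Pde6b, and Cngb1, whose value is the late median, passed the filter only by their wild-type value. With values below the filter raised to it, Pde6b had -0.81, less low than Nrl, and Cngb1 had -0.24. Sag stayed lower than Nrl, and the late median was then -0.81. The difference, Nrl minus the late median, was -0.26 and went to 0.50 when the filter was raised to the 75th percentile of 109.4, which left Sag and Rom1 as the late genes. It was also above 0, by 0.0081, with no pseudocount, so the data give no order between early and late genes. Pde6b fell short of 2-fold when the pseudocount was raised to the pooled median, with a log2 ratio of -0.91. Nrl and Sag were at least 2-fold lower in each of the settings plotted.

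**Figure D3:**
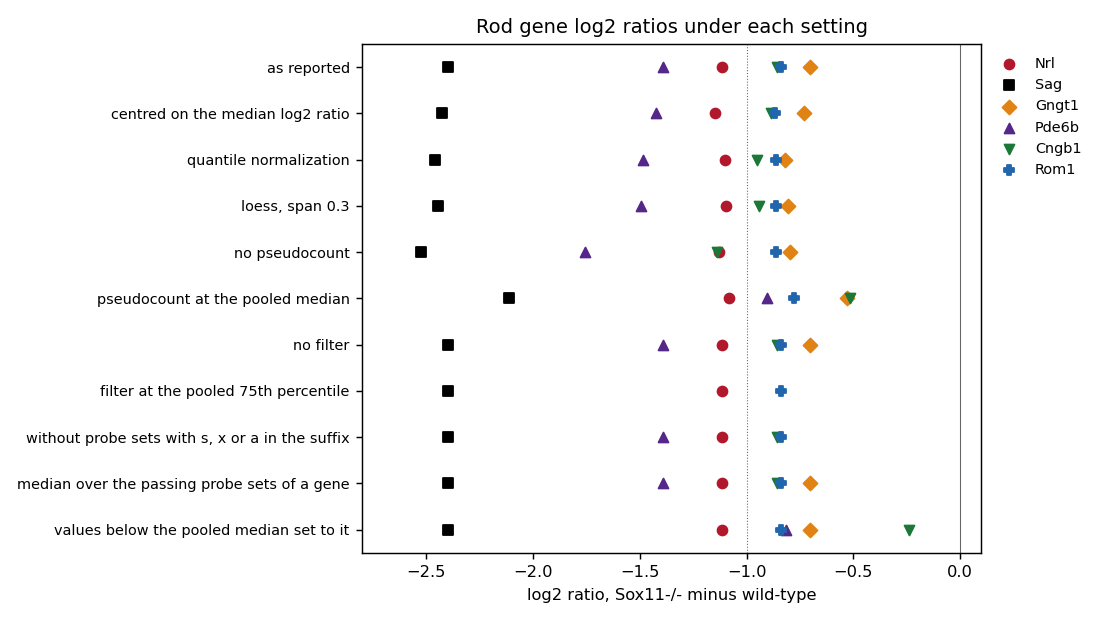
Log2 ratio (Sox11-/- minus wild-type) of the 6 rod genes past the filter under the reported setting, 9 alternatives and 1 with values below the filter raised to it, with 2-fold lower as a dotted line. Sag and Nrl stay past the dotted line in every row, between -2.53 and -2.11 and between -1.15 and -1.08, while Pde6b and Cngb1, dim in Sox11-/-, move most.

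Other genes of the rod pathway were mostly less low than the members, with most log2 ratios below 0. The members were chosen by lower intensities between these same arrays, so this difference is no test. The 2 ranges overlapped: the lowest of the other genes, Samd11 at -0.92, was lower than Cngb1, Rom1 and Gngt1. A list of 43 further genes had probe sets for 38, and 28 passed the filter: 22 had a log2 ratio below 0 and 6 above 0, with 1 on each side past the filter only by its brighter array, none was 2-fold apart in either direction, and the median was -0.20. Over all genes past the filter, 0.407% were at least 2-fold lower and 0.943% at least 2-fold higher. Over all 11557 genes the median was -0.01 and 52.1% were below 0. The 10 genes that did not pass read between 0.6 and 16.0 in Sox11-/- and between 0.4 and 16.4 in wild-type, and 5 of the 10 were lower in Sox11-/-. Among them were 7 of phototransduction and its recovery, including Pde6a, the partner of Pde6b, and Cnga1, the partner of Cngb1.

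Most of the other photoreceptor regulators listed were close to level. Otx2, which opens the photoreceptor lineage, read 1751.3 in Sox11-/- and 1841.2 in wild-type, a log2 ratio of -0.07. Crx, the homeobox factor of all photoreceptors, read 800.7 in Sox11-/- and 958.4 in wild-type, and its 2 probe sets gave -0.26 and 0.02. Prdm1, which keeps precursors from the bipolar fate, read 883.3 in Sox11-/- and 896.4 in wild-type, a log2 ratio of -0.02. The 12 regulators past the filter ran from -0.92 to 0.15 with a median of -0.14, and Nrl at -1.12 was lower than each of them. The nearest was Samd11, a SAM domain protein of rods, which read 43.0 in Sox11-/- and 85.8 in wild-type, a log2 ratio of -0.92. Nrl was among the genes chosen by their lower intensities between these same arrays, so its place below the other regulators is no test.

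Lower values recurred among some genes of the outer segment and of light signalling. The list of outer segment, cilium and visual cycle genes had a median of -0.31 over 9 genes past the filter, and the other phototransduction genes -0.18 over 7. Rp1, a microtubule protein of the outer segment, read 42.8 in Sox11-/- and 76.5 in wild-type, a log2 ratio of -0.77. Pdc, phosducin, which binds transducin beta-gamma, read 754.4 in Sox11-/- and 1285.1 in wild-type, a log2 ratio of -0.76. Aipl1, a chaperone of the phosphodiesterase, read 73.0 in Sox11-/- and 123.2 in wild-type, and its 2 probe sets gave -0.72 and -0.25. Rcvrn, recoverin, which cones also express, read 45.2 in Sox11-/- and 55.8 in wild-type, a log2 ratio of -0.28. At the upper end, Abca4, the retinoid flippase of the discs, read 91.3 in Sox11-/- and 62.6 in wild-type, a log2 ratio of 0.51. Rdh12, a retinol dehydrogenase, read 19.5 in Sox11-/- and 14.6 in wild-type, so it passed the filter only by its Sox11-/- value and was at least 1.05-fold higher. Rp1, Aipl1 at -0.72 and Samd11 lay below the central 95% of their band of level, -0.53 to 0.77. Pdc lay below that of the brightest band, -0.38 to 0.41, while Rcvrn, Abca4 and Rdh12 lay inside theirs. A place below its band was therefore not particular to the members.

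Cone genes lay on both sides of 0. Of 12 genes, 9 passed the filter, with 3 below 0, 6 above 0 and a median of 0.16. Thrb, the thyroid hormone receptor of cones, read 43.2 in Sox11-/- and 25.9 in wild-type, a log2 ratio of 0.64, and Pde6c, the cone counterpart of the rod phosphodiesterase, read 139.0 in Sox11-/- and 80.3 in wild-type, a log2 ratio of 0.76. At the lower end, Pde6h had -0.32 with its other probe set at 0.08, Cngb3 had -0.17, Opn1sw, the short-wave cone opsin, had -0.11 with its other probe set at -0.80, and Rxrg, a cone nuclear receptor, had 0.05. The difference between the rod and cone lists was not tested.

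**Figure D4:**
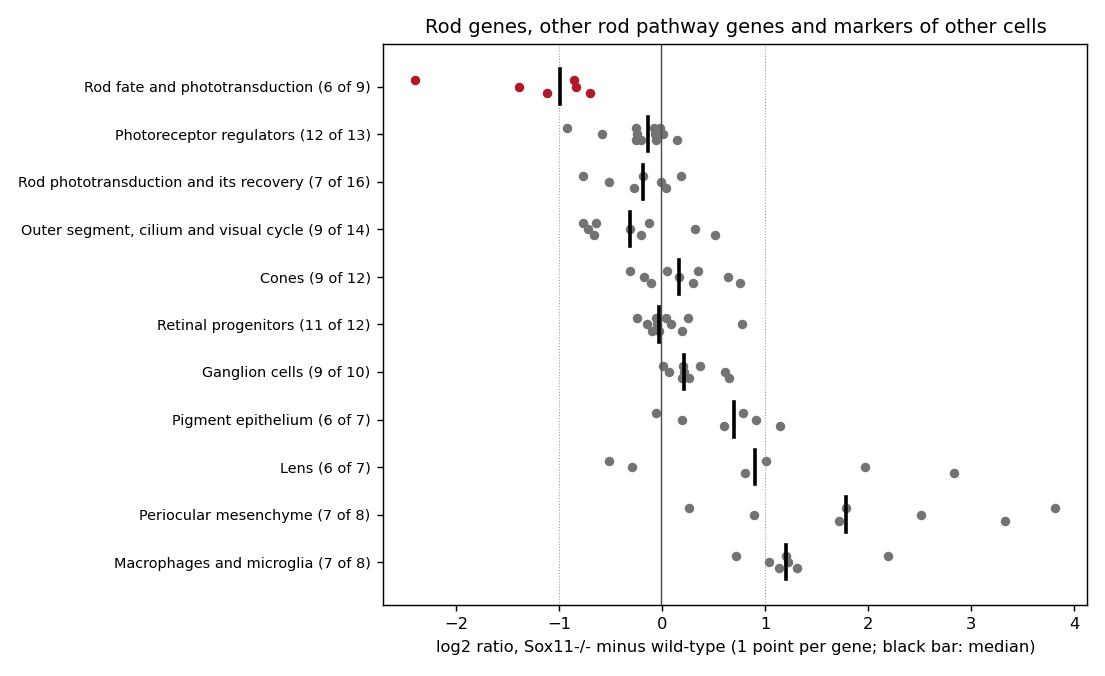
Log2 ratio (Sox11-/- minus wild-type) of each gene past the filter, 1 point a gene, for the rod genes in red and 10 other lists in grey, with the list median as a black bar, the median of all genes as a grey line and 2-fold as dotted lines. Beside each name stand the genes past the filter of those listed, and the 6 rod genes lie between -2.40 and -0.70 while the lists of other tissues extend to the right.

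Markers of other cells that the dissected tissue could hold differed between the arrays. For periocular mesenchyme, 7 of 8 markers were measured and all 7 were higher in Sox11-/-, 6 of them from a wild-type value below the filter, with a summed intensity of 598.3 in Sox11-/- and 81.4 in wild-type; the collagens Col3a1 and Col1a2 had log2 ratios of 3.82 and 1.72. Macrophage and microglia markers were higher in 7 of 7 measured, 1 of them past the filter only by its Sox11-/- value, with sums of 683.2 in Sox11-/- and 307.1 in wild-type, and Csf1r and C1qb had 0.72 and 1.31. Pigment epithelium markers were higher in 5 of 6, 2 of them past the filter only by their Sox11-/- value, with sums of 416.2 in Sox11-/- and 272.9 in wild-type; Pmel and Dct had 0.60 and 0.91, while Rpe65, the defining enzyme, was below the filter at 3.6 in Sox11-/- and 1.3 in wild-type. Lens markers were higher in 4 of 6, 3 of them past the filter only by their Sox11-/- value and 1 lower marker only by its wild-type value, with sums of 317.0 in Sox11-/- and 195.6 in wild-type, and Cryaa and Crygf had -0.52 and 1.97. No marker of these lists was at 0 on either array, and their part in the lower rod values was not tested.

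The medians of 2 other neural retina lists lay near or above 0. The 11 progenitor markers past the filter had a median of -0.03, with sums of 13327.8 in Sox11-/- and 13180.5 in wild-type. The 9 ganglion cell markers had a median of 0.21, with sums of 5699.8 in Sox11-/- and 4892.5 in wild-type, and Nefl and Isl1, a neurofilament and a homeobox factor of ganglion cells, had 0.01 and 0.20. For the 8 rod genes, taking the brightest probe set of each, the sums were 522.8 in Sox11-/- and 1235.8 in wild-type, most of which is Nrl, Sag and Rom1. These 8 were chosen by lower intensities between the same arrays, so their sums do not stand for all rod transcripts. For the 38 other rod pathway genes with a probe set, the sums were 11606.5 in Sox11-/- and 12961.2 in wild-type. Most of this is photoreceptor regulators, with 7837.8 in Sox11-/- and 8056.5 in wild-type. The other phototransduction genes summed to 1735.1 in Sox11-/- and 2331.4 in wild-type. The outer segment, cilium and visual cycle genes summed to 2033.6 in Sox11-/- and 2573.3 in wild-type.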

How the data were processed

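Per the labels' protocols, RNA from a single retina of each genotype was converted to biotinylated cRNA with Affymetrix kits; each genotype has 1 array. The authors deposited 1 linear intensity per probe set and array; the software is not given in the sources used here, and the shared scaling was read from the values. No column lay outside the series.

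After 64 control probe sets were left out, ratios were taken on log2(intensity + 5), 5 being the pooled 25th percentile. A gene took its brightest probe set past the filter, and only probe sets with 1 symbol in GEO's platform annotation were named (34945; 932 had several and 9160 none). The number of arrays limits the precision. Folds against a value below the filter are bounds against 18.6. Named genes were the members, then the 4 lowest and 2 highest pathway and cone genes with Crx, Otx2, Prdm1 and Rcvrn, and the 2 brightest markers of each other list. Members and lists were chosen with earlier results of these data known. Alternatives changed scaling, pseudocount, filter, probe sets and gene value; 2 were added after seeing the data. Python 3.11.15, pandas 2.3.3, statsmodels 0.14.6 (loess) and matplotlib 3.10.9 were used, and the code was tested on simulated data. The planned protein comparison was not made, and 1 item of the named genes is not reported here.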

Additional observations from a re-analysis of the deposited data

How the results depend on the processing

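All 120 alternative values of the 14 gene and probe set log2 ratios of the rod genes stayed below 0. Of these, 105 moved by less than 0.26, the SD between probe sets of a gene, and 15 by more, all under a changed pseudocount or with values below the filter raised to it. Much of this was fixed in advance. The gene values repeat those of a probe set, and a changed filter or choice of probe sets cannot alter the ratio of a probe set. A changed pseudocount, or low values raised to the filter, cannot turn its sign. Only the changes of scaling could do so. The Nrl ratio stayed between -1.15 and -1.08. The count of rod genes at least 2-fold lower was 3, with a range of 2 to 4. The late median of -0.86 was -1.14 with no pseudocount, -1.62 with the filter at the 75th percentile, which left 2 late genes, and -1.13 without the probe sets whose suffix holds s, x or a, which left 4. In those same settings the difference between Nrl and the late median, otherwise -0.26, turned to 0.0081, 0.50 and 0.008. The 94 probe sets at least 2-fold lower were 166 with no pseudocount, 37 with the pseudocount at the pooled median, 617 with no filter and 24 with the stricter filter. Values below the filter raised to it, and the late genes without Sag, were alternatives chosen after seeing the data. No paired analysis was possible because each genotype has 1 array, and no array could be left out. Signal near background limits Gnat1, Prph2, Pde6b and Cngb1, and also Gngt1, whose probe sets past the filter all lie in the dimmest band.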
